A study of Mus musculus with 20 samples.

Results

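The genes Hic1, Asb2, Rara, Rxra and Dhrs3, 5 of the 17488 tested, are described here in splenic natural killer (NK) cells of mice. They were taken by name from the array's own gene column, which gave 8 of 41174 probes. The set was chosen by the measured differences between groups: Hic1 and Asb2 ranked 2 and 4 of 17488 genes by unadjusted p-value between the selenium and control groups, and 9 and 7 for the ptaquiloside by selenium interaction. Their differences between groups are therefore given as descriptions, with standard errors and without tests. Rara, Rxra and Dhrs3 were added for their place in retinoid signalling, and ranked 9894, 7397 and 1829 in the selenium comparison. For Dhrs3, unadjusted p-values from an alternative fit are also printed below, and they too are descriptions.

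The mice were 20 male C57BL/6 animals, 5 per group, all given a daily gavage for 14 days. The control group received water, the ptaquiloside group 5.3 mg/kg of ptaquiloside, the selenium group 1.3 mg/kg of selenium, and the combined group both agents at these doses. Ptaquiloside is the main toxin of bracken fern. NK cells were obtained untouched by magnetic depletion of other spleen cells, and RNA of each mouse was labelled with cyanine 3 and hybridised to its own array of 60-base probes.

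Retinol is oxidised to retinal and then to retinoic acid, which binds the nuclear receptors RAR and RXR, and the RAR and RXR heterodimer acts on target genes through repeated hexamers in DNA. Dhrs3 encodes a reductase that turns retinal back into retinol, and in many cells retinoic acid induces it. Hic1 encodes a zinc finger transcriptional repressor, and Asb2 encodes the substrate-binding subunit of a cullin 5 ubiquitin ligase that marks filamins for degradation. Both Hic1 and Asb2 have been reported as retinoic acid-responsive genes in other blood cells.

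Of the 8 probes, 2 carry the name Asb2 in the scanner files, and their sequences belong to different loci. The set below shows why they were kept apart. The probe A_51_P115715 is annotated to NM_023049 and lies on the minus strand at chr12:104559752-104559811 of mm9, and it was used for Asb2. The probe A_52_P206322 is annotated to U76382, an antibody fragment mRNA, and lies on the plus strand at chr6:67811579-67811638. Of 17354 other genes measured on all of 19 arrays (ptaquiloside 4, described below, left out), the one whose pattern within slides was most like that of A_52_P206322 was an immunoglobulin kappa V segment on the same chromosome, at chr6:67987200-67987259 (Pearson r = 0.966). The capitals mark the longest run of bases, 20, that these 2 probes share. The longest run that A_52_P206322 shares with the Asb2 probe is 6 bases.
Asb2 (A_51_P115715): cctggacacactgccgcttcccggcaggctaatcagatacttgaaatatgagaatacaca
named Asb2 (A_52_P206322): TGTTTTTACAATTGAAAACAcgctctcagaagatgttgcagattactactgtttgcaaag
kappa V segment (A_52_P136741): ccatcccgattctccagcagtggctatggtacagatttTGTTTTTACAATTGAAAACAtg

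The other probes matched their genes' chromosomes. Hic1 was read by A_51_P355753 at chr11:74978107-74978166, Rara by A_51_P389724 at chr11:98831859-98831918, Rxra by A_52_P188139 at chr2:27618411-27618470 and A_51_P307370 at chr2:27615316-27615375, and Dhrs3 by A_52_P387237 at chr4:144517350-144517409 and A_51_P282947 at chr4:144517217-144517276, all in mm9. No annotation of this build was used here, so exons and untranslated regions are not given.

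Values are the log2 of the processed signal minus the log2 of the array's 75th percentile, so 0 is the level of that percentile and a difference of 1 is 2-fold. The 75th percentile of the signal was between 45.5 and 133 units on 19 arrays and 10.5 on ptaquiloside 4. Ptaquiloside 4 had a signal clear of background at 36.3% of spots, where the other arrays had 51.7% to 60.8%. Its values correlated with theirs at r between 0.454 and 0.661 over genes, against 0.899 to 0.991 among the 19. Most differences of the 5 genes that rest on it are given with and without it. Some group means, SDs, list counts and list medians are given only with it. Replicate numbers correspond to slides: each of the 5 slides held 1 array of every group, at a position that was the same for a group on every slide, so slide position and treatment cannot be told apart.

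Hic1, the repressor, was higher in every treated group than in controls, most of all after selenium. The probe was well above background on all 20 arrays. In controls 1 to 5 the scaled signal was 2.36, 1.43, 0.98, 0.20 and 0.54. In the selenium group it was 3.17, 2.89, 2.66, 2.56 and 3.65. The lowest selenium array lay above the highest control array, so these groups did not overlap, as was the case for 0.213% of 17350 genes measured on all arrays. In the ptaquiloside group the values were 3.31, 2.46, 1.39, 1.44 and 2.19, and in the combined group 2.89, 2.37, 2.14, 1.37 and 2.15. Both of these groups overlapped with the upper controls, control 1 and control 2.

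**Figure D1:**
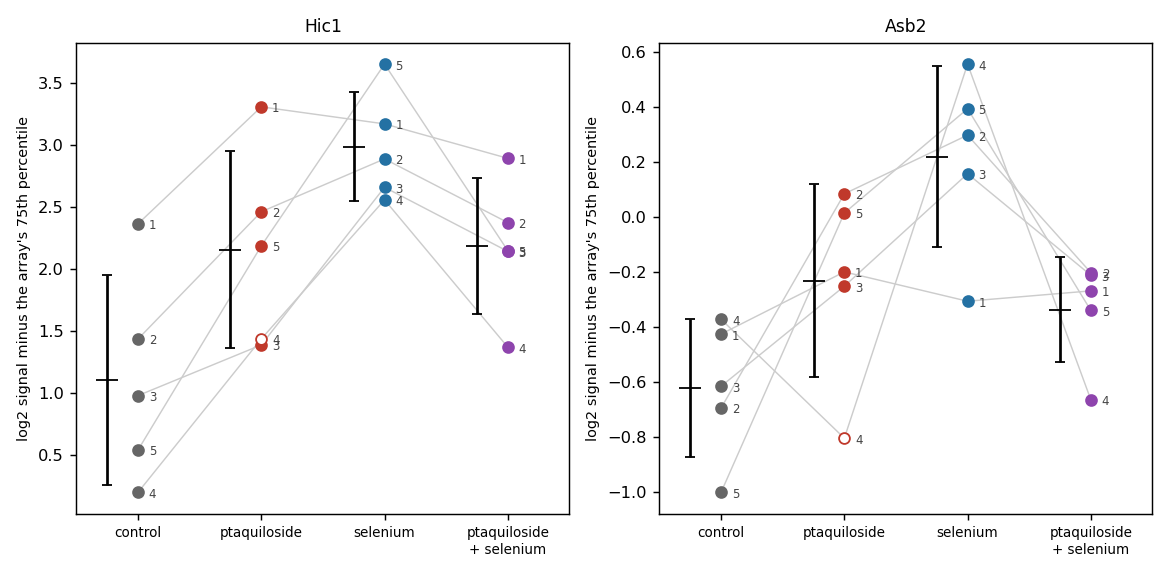
Scaled log2 signal of Hic1 (left) and Asb2 (right) on each of the 20 arrays, by group, with the replicate (slide) number beside each point and grey lines joining the arrays of a slide; black bars are the group mean and SD (n = 5) and the open circle is the dim array ptaquiloside 4. The selenium arrays of Hic1 lie between 2.56 and 3.65, all above the control arrays, and the mean of the combined group lies between the control and selenium means for each gene.

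The mean level of Hic1 was 1.10 ± 0.85 (SD, n = 5) in controls, 2.16 ± 0.80 (n = 5) after ptaquiloside, 2.19 ± 0.55 (n = 5) after both agents and 2.99 ± 0.44 (n = 5) after selenium. Without ptaquiloside 4 the ptaquiloside mean was 2.34 ± 0.79 (n = 4). With that array included, the gap between the ptaquiloside and combined groups, 0.03, was far below the pooled SD within groups of 0.68. The gaps on either side, 1.05 above the controls and 0.80 below the selenium group, exceeded it.

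Selenium minus control was 1.88 ± 0.42 (SE) for Hic1, a 3.69-fold higher signal. Within slides the difference was 0.81, 1.45, 1.68, 2.36 and 3.12, higher on 5 of 5 slides, which held for 5.4% of genes. Ptaquiloside minus control was 1.05 ± 0.42, or 2.08-fold, with within-slide differences of 0.94, 1.03, 0.41, 1.24 and 1.65; without ptaquiloside 4 it was 1.23. Of all genes, 2.48% were higher on 5 of 5 slides in that comparison. The combined group minus control was 1.08 ± 0.42, or 2.12-fold, with 0.53, 0.94, 1.16, 1.17 and 1.61 within slides, and 1.52% of genes were higher on 5 of 5 slides there.

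Hic1 was thus on average 2.08-fold to 3.69-fold above the control in each treated group. Its mean was lower in the combined group than in the selenium group, and the ranges of these groups overlapped. Combined arrays reached 2.89 and selenium arrays began at 2.56. The combined group minus selenium was -0.80 ± 0.42, with the lower value on 5 of 5 slides (-0.28, -0.51, -0.52, -1.19 and -1.51; 2.49% of genes). The interaction, which is the effect of selenium in the presence of ptaquiloside minus its effect alone, was -1.85 ± 0.59. It was -1.22, -1.54, -0.93, -2.43 and -3.15 on slides 1 to 5, negative on 5 of 5, as for 2.02% of genes, and -2.03 without ptaquiloside 4. The combined group minus ptaquiloside was 0.03 ± 0.42, and -0.15 without ptaquiloside 4.

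None of the 17488 genes passed an adjusted p of 0.05 in limma in any of these comparisons (0% called), so neither Hic1 nor any other member was called. Unadjusted p-values were under 0.05 for 184 genes between selenium and control, 262 between ptaquiloside and control, 40 between the combined group and control, 102 between the combined and selenium groups, 425 between the combined and ptaquiloside groups, and 210 in the interaction. Each count was a smaller share of the 17488 genes than 0.05, the share expected on average without any difference. The methods' t-test on the same values also called 0 genes after Benjamini-Hochberg adjustment, and 587 had an unadjusted p under 0.05 between selenium and control. With the slide as a replicate block, limma called 0 genes between selenium and control, and 331 had an unadjusted p under 0.05. The smallest adjusted p in that fit was 0.068.

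Hic1 also varied between slides. Its mean over the 4 arrays of a slide was 2.93 on slide 1, 2.29 on slide 2, 1.79 on slide 3, 1.39 on slide 4 and 2.13 on slide 5. Control 1 and control 4 were 2.36 and 0.20, so slides of one group differed by as much as the groups did.

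Asb2, the ubiquitin ligase subunit, followed the same order at its extremes, lowest in controls and highest after selenium, with smaller differences. Its probe was well above background on all 20 arrays. In controls the scaled signal was -0.43, -0.69, -0.61, -0.37 and -1.00. In the selenium group it was -0.31, 0.30, 0.16, 0.56 and 0.39. These groups did not overlap either (0.213% of genes), although selenium 1 stood close to the highest control. In the ptaquiloside group the values were -0.20, 0.08, -0.25, -0.80 and 0.01, the lowest of them on the dim array, and in the combined group -0.27, -0.20, -0.21, -0.66 and -0.34.

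Group means of Asb2 were -0.62 ± 0.25 (SD, n = 5) in controls, -0.34 ± 0.19 (n = 5) in the combined group, -0.23 ± 0.35 (n = 5) after ptaquiloside and 0.22 ± 0.33 (n = 5) after selenium. Without ptaquiloside 4 the ptaquiloside mean was -0.09 ± 0.16 (n = 4). With the dim array included, only the step up to the selenium group, 0.45, exceeded the pooled SD within groups of 0.29. The lower steps of 0.28 and 0.11 did not. This contrast between the steps rests on ptaquiloside 4. Without that array the combined group minus ptaquiloside was -0.25, and the step from ptaquiloside to selenium ran from -0.09 to 0.22. The pooled SD of 0.29 also includes that array.

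Selenium minus control was 0.84 ± 0.21 (SE) for Asb2, or 1.79-fold. Within slides it was 0.12, 0.99, 0.77, 0.93 and 1.39, higher on 5 of 5, as for 5.4% of genes. With normexp background correction in place of the scanner's processed signal, the difference was 0.51. Ptaquiloside minus control was 0.39 ± 0.21, and 0.53 without ptaquiloside 4, with the higher value on 4 of 5 slides. The combined group minus control was 0.28 ± 0.21, and the combined group minus selenium was -0.56 ± 0.21. The interaction was -0.95 ± 0.30, negative on 5 of 5 slides (-0.19, -1.28, -0.73, -0.79 and -1.75; 2.02% of genes), -1.09 without ptaquiloside 4 and -0.59 with normexp.

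**Figure D2:**
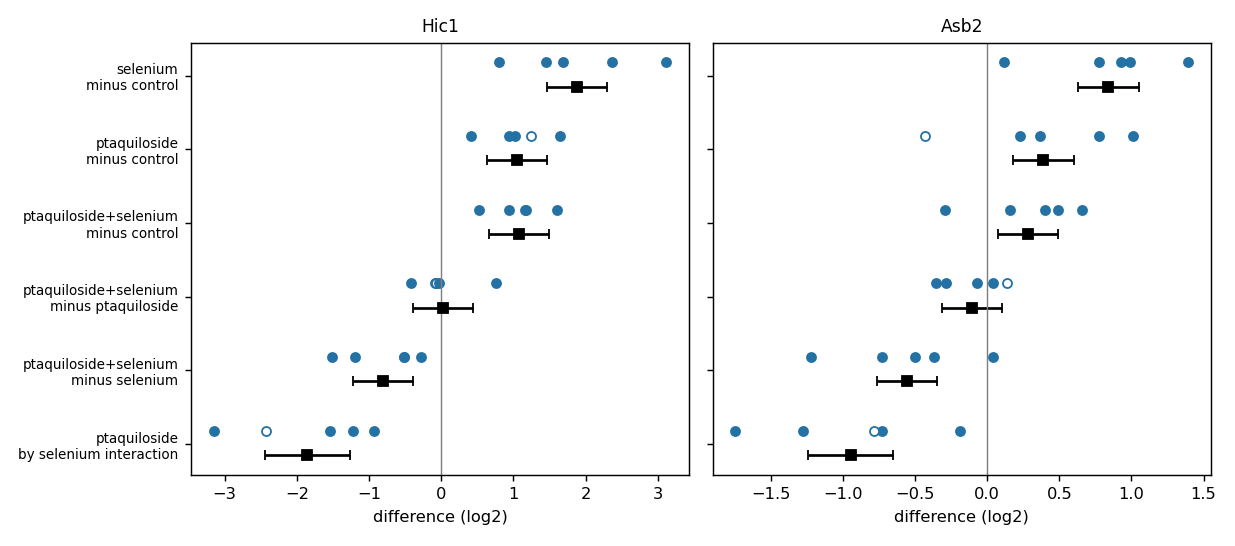
Differences of scaled log2 signal for Hic1 (left) and Asb2 (right): circles are the 5 slides, open circles involve the dim array ptaquiloside 4, and squares with bars are the limma difference and its SE. For Hic1 all 5 slides lie above 0 in the 3 comparisons with the control and below 0 in the interaction; for Asb2 this holds for selenium minus control and the interaction.

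Hic1 and Asb2 varied together across arrays, also after the group means had been removed. With each array's value taken minus its slide mean, Asb2 was the gene most like Hic1 of 17354, and Hic1 the most like Asb2, with a Pearson r of 0.879 and a Spearman rho of 0.879 over 19 arrays. The r was 0.674 without removal of slide means. With the group means removed as well, r was 0.693 and rho 0.589, and r was 0.577 after leaving out selenium 1 and selenium 5, the arrays farthest from the median of Hic1. These arrays share slides, group labels and the scaling of each array, and Hic1 and Asb2 were chosen for similar differences, so the values are a description. The next most like Hic1 were Spint1, an inhibitor of serine proteases (r = 0.827), and Ccno, a cyclin-like gene (r = 0.822). Next for Asb2 were Usp18, a protease that removes the interferon-induced modifier ISG15 (r = 0.849), and Dixdc1 (r = 0.828).

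**Figure D3:**
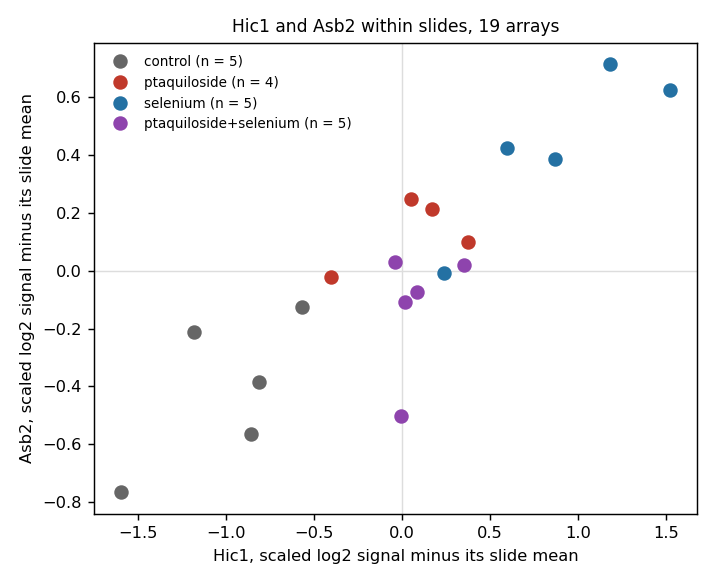
Hic1 (horizontal) against Asb2 (vertical) on 19 arrays, each as scaled log2 signal minus the mean of its slide, coloured by group; ptaquiloside 4 is left out. Controls lie at the lower left and 4 of the 5 selenium arrays at the upper right, with the other groups between them along the Hic1 axis (r = 0.879). On the Asb2 axis combined 4, at -0.50, lies below 3 of the 5 controls.

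Rara and Rxra encode the retinoic acid receptor alpha and its partner, the retinoid X receptor alpha. Neither differed between groups by more than its SE on the probe used. The Rara probe, whose sequence follows, was well above background on 18 of 20 arrays, all but ptaquiloside 4 and combined 5.
Rara (A_51_P389724): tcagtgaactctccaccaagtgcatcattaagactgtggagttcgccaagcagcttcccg
Its group means were -3.38 ± 0.24 in controls, -3.44 ± 0.34 after ptaquiloside, -3.28 ± 0.20 after selenium and -3.49 ± 0.79 in the combined group (SD, n = 5 each). Selenium minus control was 0.10 ± 0.29 (SE) and the interaction -0.15 ± 0.42, or -0.07 without ptaquiloside 4. The wide spread of the combined group came from combined 5 at -4.84, where the spot was not well above background, while its other arrays lay between -3.56 and -3.01.

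Rxra was read by 2 probes. On A_52_P188139 the group means lay between 1.58 ± 0.13 (selenium) and 1.72 ± 0.50 (control; SD, n = 5), and selenium minus control was -0.14 ± 0.29 (SE). On A_51_P307370 selenium minus control was -0.01 ± 0.29. Ptaquiloside minus control was -0.07 on the first and 0.31 on the second of these probes, or -0.14 and 0.08 without ptaquiloside 4. Across 19 arrays the 2 Rxra probes did not move together (r = -0.33, and -0.06 with slide means removed), so array-to-array variation of Rxra could not be read from either probe alone.

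Dhrs3, the retinal reductase, differed from the controls in each treated group by less than its pooled SD within groups of 0.39. That SD includes the dim array. The SD of the ptaquiloside group was 0.68 with ptaquiloside 4 and 0.21 without it. On A_52_P387237 controls were at 4.40, 4.36, 4.71, 4.48 and 4.62, and the selenium arrays at 4.62, 4.86, 4.74, 4.53 and 5.28. These groups overlapped. Selenium minus control was 0.29 ± 0.26 (SE), or 1.22-fold, with the higher value on 5 of 5 slides (0.22, 0.50, 0.03, 0.05 and 0.66), against 5.4% of genes. On A_51_P282947 it was 0.24 ± 0.32, also higher on 5 of 5 slides. These SEs pooled the spread of all groups, the dim array included, and took no account of slides. With the slide as a block and without ptaquiloside 4, Dhrs3 had an unadjusted p under 0.05 in limma here. So did 948 of 17488 genes, and Dhrs3 was not called. The 2 Dhrs3 probes moved together across 19 arrays (r = 0.75).

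In the ptaquiloside group the A_52_P387237 values were 4.45, 4.60, 4.69, 3.20 and 4.95. The 3.20 is the dim array, and it decided the sign: ptaquiloside minus control was -0.14 ± 0.26 with it and 0.16 without it. The combined group was at 4.27, 4.52, 4.58, 4.75 and 4.46, with a mean of 4.51 ± 0.18 (SD, n = 5), the same to 2 decimals as the control mean of 4.51 ± 0.15. The interaction was -0.15 ± 0.37 (SE), and -0.45 without ptaquiloside 4. With the slide as a block as well, it was -0.44, with an unadjusted p under 0.05 in limma, as for 730 of 17488 genes. The combined group minus selenium was -0.29 ± 0.26, and in that block fit its unadjusted p was also under 0.05, as for 641 genes. Neither was called. Within slides, Dhrs3 followed Hic1 with r = 0.56 and Asb2 with r = 0.50 over 19 arrays, ranks 262 and 565 in their lists, and with group means removed as well r was 0.21 and -0.07. The genes most like Dhrs3 were Xdh (r = 0.895), Sdf4 (r = 0.894) and Cd82 (r = 0.880).

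The probe A_52_P206322, named Asb2 but matching the kappa locus, differed from the Asb2 probe in its order of groups and lay lowest in the combined group. Its group means were -0.57 ± 0.93 in controls, -0.33 ± 0.76 after ptaquiloside, -0.19 ± 0.95 after selenium and -1.06 ± 0.75 in the combined group (SD, n = 5). Selenium minus control was 0.38 ± 0.51 (SE), with slides between -1.21 and 1.90. Its r with the Asb2 probe was 0.11 over 19 arrays.

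**Figure D4:**
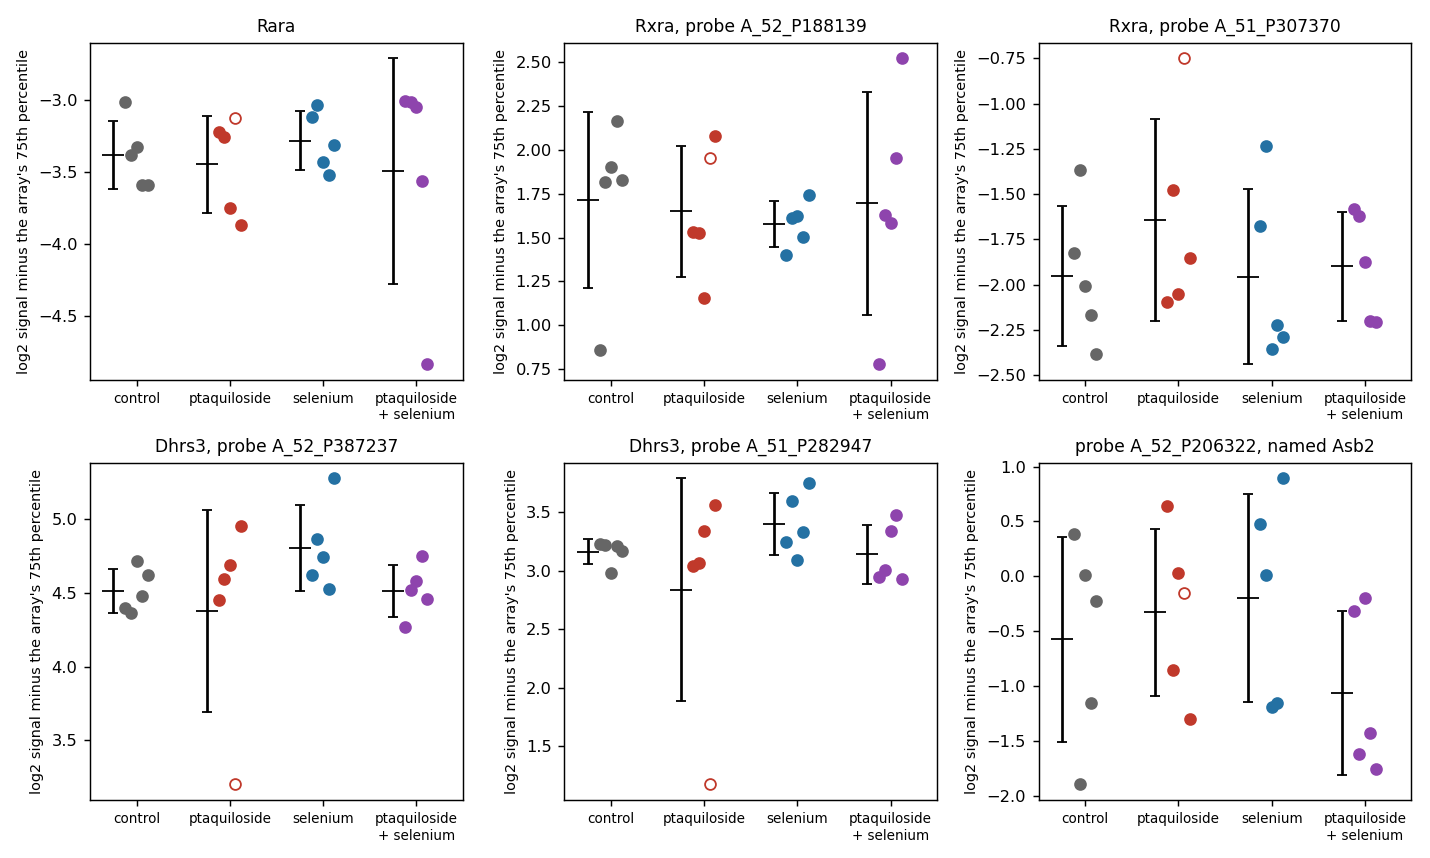
Scaled log2 signal of the probes for Rara, Rxra and Dhrs3 and of the probe named Asb2 that matches the kappa locus, on each of the 20 arrays by group, with replicates 1 to 5 from left to right; bars are the group mean and SD (n = 5), and the open circle is ptaquiloside 4. The group ranges overlap in every panel, and ptaquiloside 4 is the lowest array of its group on both Dhrs3 probes.

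The wider retinoid pathway was examined with a list of 72 genes, of which 70 were on the array and 50 bright enough to test. Between selenium and control 27 of the 50 had a higher mean and 23 a lower one, with a median difference of 0.04 against 0.01 over all genes. None was called, and none had an unadjusted p under 0.05 in limma with 1 mean per group. With the slide as a block and without ptaquiloside 4, 0 were called, and 1 higher and 3 lower genes (the lower ones Stra6l, Ccr9 and Nr1h3) had an unadjusted p under 0.05. The largest differences were 0.73 (Aldh1a3, a retinal dehydrogenase) and -0.52 (Stra6l, a retinol transporter), against 1.88 for Hic1. Between ptaquiloside and control 26 were higher and 24 lower, with a median of 0.05, 0 called and 1 gene, Rbp2, at an unadjusted p under 0.05. With the slide as a block and without ptaquiloside 4 this median was -0.03. In that fit 0 higher genes and 1 lower gene had an unadjusted p under 0.05 in limma. The interaction was positive for 26 and negative for 24, with a median of 0.05 against 0.02 over all genes, 0 called and 0 at an unadjusted p under 0.05.

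Among genes that handle retinol, Stra6 (the retinol receptor) had a selenium minus control difference of -0.13 ± 0.53 and Stra6l one of -0.52 ± 0.36. Of the 13 tested genes listed under synthesis of retinal and retinoic acid, 11 had a higher mean after selenium, with a median difference of 0.12. This listing does not show in which direction an enzyme works in these cells. The brightest of the 13 were Adh5 (0.15 ± 0.40), Rdh12 (0.38 ± 0.40) and Rdh11 (0.02 ± 0.20). Each of these differences was within its SE of 0. Of the 3 enzymes that degrade retinoic acid, Cyp26b1 alone was tested, at -0.03 ± 0.81, and Cyp26a1 was too dim.

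Among the other receptors, 3 of 4 had a higher mean after selenium. Rxrb differed by 0.15 ± 0.29, Rarg by -0.06 ± 0.66 and Rxrg by 0.21 ± 0.76. The coregulators split into 5 higher and 6 lower. In that group the corepressor Ncor1 differed by 0.14 ± 0.26 and the coactivator Ncoa6 by -0.09 ± 0.38. All 11 coregulators had a lower mean after ptaquiloside, with a median of -0.33, and this median was -0.05 with the slide as a block and without ptaquiloside 4.

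Of the RXR partners, 4 of 8 had a higher mean after selenium. Nr4a1 differed by 0.08 ± 0.41, Nr4a2 by 0.10 ± 0.33 and Nr1h2, a liver X receptor, by -0.02 ± 0.30. Of the 9 reported retinoic acid targets tested, 3 had a higher mean and 6 a lower one, with a median of -0.17. The brightest were the transglutaminase Tgm2 (0.00 ± 0.28) and the integrin subunits Itgb7 (0.25 ± 0.23) and Itga4 (-0.03 ± 0.22).

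**Figure D5:**
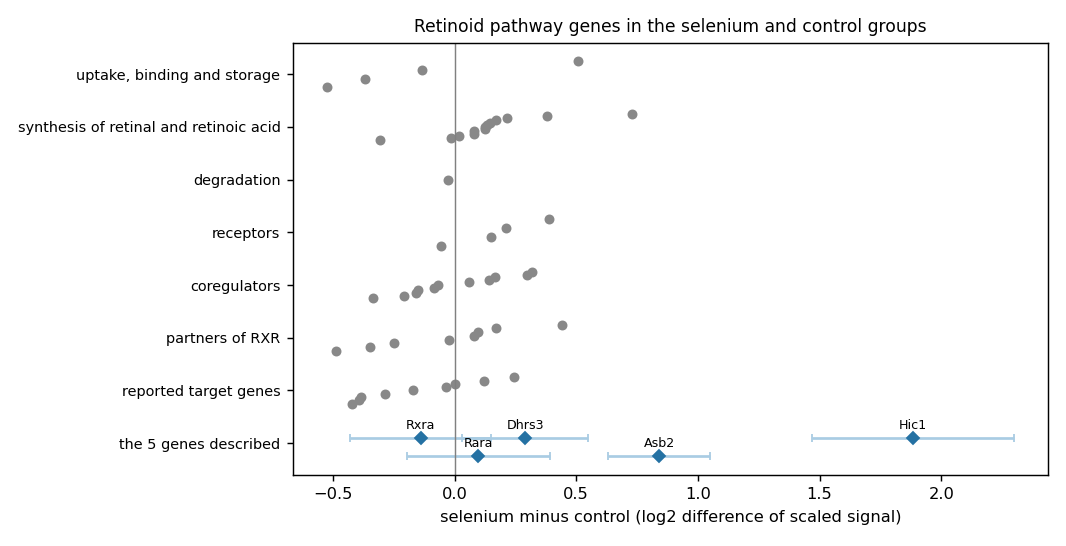
Selenium minus control, as a difference of scaled log2 signal, for the 50 tested genes of the retinoid pathway list by role (grey points), and below them the 5 genes described, with SE bars. The list genes lie between -0.52 and 0.73, while Asb2 stands at 0.84 and Hic1 at 1.88.

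Of the 7 partners and substrates of Asb2, 5 had a higher and 2 a lower mean after selenium, and none was called. Elob, Rnf7 and Cul5, which join Asb2 in its ubiquitin ligase, had selenium minus control differences of 0.21 ± 0.18, -0.01 ± 0.19 and -0.15 ± 0.26. The filamins Flna and Flnc, substrates as proteins, differed by 0.08 ± 0.22 and 0.12 ± 0.65. Of 17 other Asb family genes 8 were tested, 7 with a higher mean after selenium and a median of 0.08, against 0.84 for Asb2. The brightest were Asb6 (0.13 ± 0.22), Asb8 (-0.01 ± 0.26) and Asb1 (0.04 ± 0.19). None was called.

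Of 17 partners, regulators and reported targets of Hic1, 15 were tested, 10 with a higher and 5 with a lower mean after selenium (median 0.07). The cofactors Ctbp1, Arid1a and Mta1 differed by -0.02 ± 0.79, 0.02 ± 0.60 and 0.15 ± 0.21. The regulators Trp53 and E2f1 differed by 0.18 ± 0.34 and 0.67 ± 0.39. The reported targets Sirt1, Cdkn1a and Epha2, which Hic1 represses in other cells, differed by 0.05 ± 0.42, 0.39 ± 0.48 and 0.20 ± 0.37. None was called.

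The arrays carried NK transcripts and also transcripts of other cells. All 10 NK markers were tested and 8 were well above background on all 20 arrays, with a mean level of 3.72 in controls and 3.89 after selenium. After selenium, 10 of 10 NK markers had a higher mean (median difference 0.20, against 0.01 over all genes). Their level was higher on 4 of 5 slides. The 8 B cell markers had a mean level of -0.31 (range -0.90 to 0.54) in controls and -1.43 (-2.07 to -0.70) after selenium, higher after selenium on 1 of 5 slides. The 8 T cell markers stood in the same order, with means of -0.65 and -1.37 and ranges of -1.21 to 0.09 and -1.71 to -1.09, lower after selenium on 5 of 5 slides. The 9 macrophage and monocyte markers stood at 2.49 (1.94 to 2.85) and 1.94 (1.68 to 2.58), also lower on 5 of 5 slides. Other lists went the other way: the neutrophil markers, 7 of 8 higher after selenium, had means of 2.79 and 3.19, the platelet markers, 5 of 5 higher, 1.83 and 2.06, and the erythroid markers, 5 of 6 higher, -0.35 and -0.25. Each of these levels was higher after selenium on only 3 of 5 slides. The slide differences ran from -0.79 to 1.42 for the neutrophil, -0.05 to 0.77 for the platelet and -1.14 to 1.34 for the erythroid markers. No marker was called in these comparisons.

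The B and T cell markers also differed where Hic1 and Asb2 did between the combined and selenium groups. Combined minus selenium was higher for 8 of 8 B cell markers (median 1.00) and 8 of 8 T cell markers (median 0.69), against 0.00 over all genes, and the combined means of the lists were -0.47 and -0.57. The macrophage markers were higher for 7 of 9 (0.27). Other lists were lower, as Hic1 and Asb2 were. The NK markers were lower for 9 of 10 (median -0.14) and the neutrophil markers for 7 of 8 (-0.14). So were 5 of 5 platelet (-0.50), 5 of 6 erythroid (-0.23) and 4 of 5 basophil and mast cell markers (-0.63). The interaction was positive for 8 of 8 B cell markers (median 1.59) and 6 of 8 T cell markers (median 0.91), against 0.02 over all genes. With the slide as a block and without ptaquiloside 4, the unadjusted p of the interaction was under 0.05 for 6 B cell and 4 T cell markers, all positive. The macrophage markers had an interaction median of 0.47, and the platelet markers one of -0.36. In that block fit these medians were 0.23 and -0.49.

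Within slides over 19 arrays, the r of Hic1 with these levels was -0.57 for the B cell, -0.39 for the T cell and -0.54 for the macrophage markers, and for Asb2 it was -0.52, -0.38 and -0.56. It was positive for the platelet markers (0.36 for Hic1 and 0.46 for Asb2), the NK markers (0.34 and 0.32) and the neutrophil markers (0.18 and 0.14), and between -0.29 and 0.21 for the other lists. Marker levels were also related to other members. For the 2 Dhrs3 probes r was 0.75 and 0.60 with the NK markers and -0.42 and -0.65 with the B cell markers. It was -0.33 and -0.59 with the T cell and -0.21 and -0.10 with the macrophage markers. For Rara r was 0.77 with the dendritic cell, -0.02 with the B cell and 0.02 with the T cell markers. The part of cell content in the differences of Hic1, Asb2 and the other members was not tested. Stromal markers were near or below detection: Col1a1, Col3a1, Lum, Pdgfra and Cxcl13 were not tested or well above background on fewer than 10 arrays, and the mean of the 5 tested was -2.43 in controls and -2.57 after selenium. In RNA from whole isolates, a change in the number of cells that carry a transcript and a change per cell cannot be told apart.

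Promoter sequence was examined for hexamers that RAR and RXR recognise. They were the consensus hexamer AGGTCA, the common variant hexamer GGGTCA, the further variant hexamer GGTTCA, and the remaining variant hexamer AGTTCA, searched on both strands of the RefSeq windows from 250 bases before to 50 bases after each start site (GRCm38.p6). Direct repeats of these hexamers spaced by 1, 2 or 5 bases were in 0 of 13 windows of the 5 genes, and in 0.222%, 0.268% and 0.0974% of all 32851 windows. Single hexamers were in 5 of the 13 windows and in 43.7% of all windows. Each of the Hic1 windows held one GGGTCA, and the Asb2 and Dhrs3 windows held none. The stretches before the upstream start sites of the genes that stood out are shown with the hexamer in capitals, for Hic1 chr11:75170256-75170505 and for Asb2 chr12:103356002-103356251, read on the minus strand of GRCm38.p6. In Hic1 it lies 84 to 79 bases before the start site.
Hic1: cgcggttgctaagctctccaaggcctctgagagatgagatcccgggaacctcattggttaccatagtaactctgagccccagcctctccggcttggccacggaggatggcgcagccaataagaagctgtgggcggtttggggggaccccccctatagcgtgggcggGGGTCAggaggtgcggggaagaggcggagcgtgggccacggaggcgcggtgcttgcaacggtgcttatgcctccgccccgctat
Asb2: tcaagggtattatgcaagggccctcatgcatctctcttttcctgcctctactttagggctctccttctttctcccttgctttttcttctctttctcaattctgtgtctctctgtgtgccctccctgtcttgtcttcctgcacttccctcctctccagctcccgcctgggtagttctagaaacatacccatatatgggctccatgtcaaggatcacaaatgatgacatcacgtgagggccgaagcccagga
The Hic1 stretch was 64.4% G and C and the Asb2 stretch 50%.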

How the data were processed

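The values are the Cy3 signal intensity of each spot as the authors deposited it, with background subtracted by Agilent Feature Extraction 9.5.3.1, per the file headers; the deposited flags (control type, well above background, outlier) are whole-number codes. Scripts scaled each array to its 75th percentile, left out control and outlier spots, averaged spots of a probe, kept probes whose flag put them clear of background on 5 or more of the 20 arrays, and used the brightest probe per gene. Probes were named through accession where RefSeq (GRCm38.p6) held it (25097 of 41174); 34 whose name lay on another chromosome, such as A_52_P206322, were kept apart. Limma 3.58.1 (R 4.3.3) was fitted on 17488 genes with 1 mean per group, on all 20 arrays, with Benjamini-Hochberg adjustment, and was tested on simulated data. Figures and tables used Python 3.11.15. The precision is limited by the number of arrays.

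Replicate numbers are slides, per the file headers: deviations from group means correlated within a number at a median r of 0.445 (30 pairs) and between numbers at -0.0801 (120 pairs). The deposited processed table, in log2, was not used because its header says that 2 arrays, control 1 and ptaquiloside 4, were replaced by group means; leaving those arrays out was tried, chosen after seeing the data. The other alternatives were normexp background correction, median and quantile scaling, other filters, every probe as a feature, the replicate block, leaving out each array, and the t-test named in that header. The members and lists were chosen with earlier results of these data known. Genes named are the 5 members, the 3 brightest tested genes of each list role (some of these are not reported here), and the 3 genes most like Hic1, Asb2 and Dhrs3; Rbp2, Aldh1a3, Ccr9, Nr1h3, Cyp26a1 and the stromal genes were named after their values were seen.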

Additional observations from a re-analysis of the deposited data

Results flagged for a closer look

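Across the 8 probes and 4 groups, 32 sets of 5 arrays were examined for an array far from the rest, of which chance would mark about 1 in 20. Ptaquiloside 4, the dim array, was far below the other ptaquiloside arrays on both Dhrs3 probes, at 3.20 on A_52_P387237 and 1.18 on A_51_P282947. Control 1 was far below the other controls on the Rxra probe A_52_P188139, at 0.86. Control 3 was below the other controls on the Dhrs3 probe A_51_P282947, at 2.98, in a group that spanned only 2.98 to 3.23. Causes were not tested.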

How the results depend on the processing

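The counts here cover the 5 genes, the probe A_52_P206322 and 6 comparisons. Under alternatives other than leaving out 1 array, 369 of 372 values moved by no more than 1 SD within groups. The exceptions were Asb2 with normexp, where selenium minus control was 0.51 and the interaction -0.59, and Rara with quantile scaling, where ptaquiloside minus control was -0.58; the cause was not tested. Leaving out each array moved 0 of 720 by more. Signs turned in 28 and 33 of these; for Hic1 only the combined group minus ptaquiloside did so, and selenium minus control stayed between 1.60 and 2.20 and the interaction between -2.35 and -1.51. The count of called genes was 0 in all comparisons under every alternative run except 1: leaving out each array gave between 0 and 1 for the interaction, the 1 gene (AK036773, named after its value was seen) appearing without combined 4. With the slides as a replicate block, 0 genes were called, and the block changed no call. It did lower the smallest adjusted p of limma between selenium and control, from 0.99995 to 0.068. Genes at an unadjusted p under 0.05 numbered 331 between selenium and control and 366 in the interaction, and without ptaquiloside 4 as well 948 and 730. Without control 1 and ptaquiloside 4, selenium minus control was 2.20 for Hic1 and 0.89 for Asb2. Median scaling shifted the median of all genes to -0.24 for ptaquiloside minus control, and no filter shifted it to 0.32, against -0.00. Dim spots limit Rara and the second Rxra probe.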
